A study of Mus musculus with 4 samples.

Results

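The inflammatory interleukins and related cytokines were followed as a list of 10 genes: *Il6*, *Il1a*, *Il1b*, *Il1rn*, *Il10*, *Il12b*, *Il15*, *Il18*, *Il27* and *Lif*. They were picked by name, with earlier results of these data known, among 20144 genes that could be named on the arrays. A probe could be named for 9 of the 10 genes, 1 probe for each, and *Il12b* was not analysed here. Naming went by transcript only and not by the gene symbol given for a probe, so further probes of these genes may exist. The signal of 8 of them stood well above background on 1 array or more, and that of 7 did so on all 4 arrays. The exceptions were *Il1a*, which was not well above background on any array, and *Il10*, which was not well above background with DMSO.

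The RNA came from J774.1 cells, a mouse line of monocyte-macrophage type, grown in medium with serum and antibiotics. For 4 hours, cultures were kept with DMSO alone or with a proteasome inhibitor at 1 µM, and the labels name no other stimulus. The inhibitors were MG132, epoxomicin, which acts on the 20S core particle, and ONX0914, which acts on subunit β5 and its immunoproteasome counterpart β5i. The treatment label of the last inhibitor array reads ONX-0912, whereas its title reads ONX and both the treatment protocol and the study name ONX0914, the name used here. Each condition had 1 single-color (Cy3) array of total RNA on 1 shared slide, and the methods name a human array design while the scanner headers describe a mouse design. With 1 array per condition the differences have no replicate check, and no p-value was calculated. They describe these arrays of 1 cell line, in which fewer cells and less RNA per cell cannot be told apart.

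The cytokines differ in role. Interleukin 6 and leukemia inhibitory factor belong to a family of ligands that signal through the shared receptor chain gp130 to JAK kinases and STAT factors. Interleukin 1α, interleukin 1β and interleukin 18 belong to the interleukin 1 family, in which interleukin 1β and interleukin 18 are made as precursors that inflammatory caspases cut, and in which the product of *Il1rn* occupies the interleukin 1 receptor without activating it. Interleukin 10 restrains cytokine production by macrophages, interleukin 15 sustains NK cells and memory T cells, and interleukin 27 is a heterodimer of the interleukin 12 family.

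The processed signal of a spot is its brightness with background removed by the scanner software, array by array. Between 60.3% and 63.1% of the spots of an array were well above background, and the dimmest signal of a probe called so was between 14.7 and 20.3. For comparison between arrays, the log2 signal was set relative to the 75th percentile of its array. A gene was called higher or lower at a 2-fold difference, which is 1 on the log2 scale. The errors given with signals and differences are those of the scanner software and, for probes with 10 spots, the SD between spots, and they hold technical error only.

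Several of these cytokines were higher with each inhibitor. With MG132, 5 of 8 genes with a value were at least 2-fold higher than with DMSO, against 7.24% of the 13772 genes compared, and 0 of 8 were at least 2-fold lower, against 3.68%. With epoxomicin, 6 of 8 were higher, against 8.48% of 13864 genes, and 0 of 8 were lower, against 4.40%. With ONX0914, 3 of 8 were higher, against 3.27% of 13791 genes, and 0 of 8 were lower, against 1.40%. The median log2 difference over the 8 genes was 1.39 under MG132, 1.89 under epoxomicin and 0.58 under ONX0914, while the median over all genes compared was -0.02, -0.04 and -0.01, respectively. With normexp background correction that kept outlier spots, the counts of higher genes were 1, 2 and 1, against 3.41%, 4.16% and 1.40% of all genes. In that setting 1 gene was lower with ONX0914, against 19.8% of all genes. *Il6*, *Il1rn* and *Il15* were at least 2-fold higher with all 3 inhibitors, as were 2.02% of the 13464 genes that had a value in every comparison with DMSO. These comparisons share the DMSO array, so that its error enters all of them. Of the 8 genes, 2 act mainly to restrain inflammation (*Il1rn* and *Il10*), and both were at least 2-fold higher with MG132 and with epoxomicin.

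**Figure D1:**
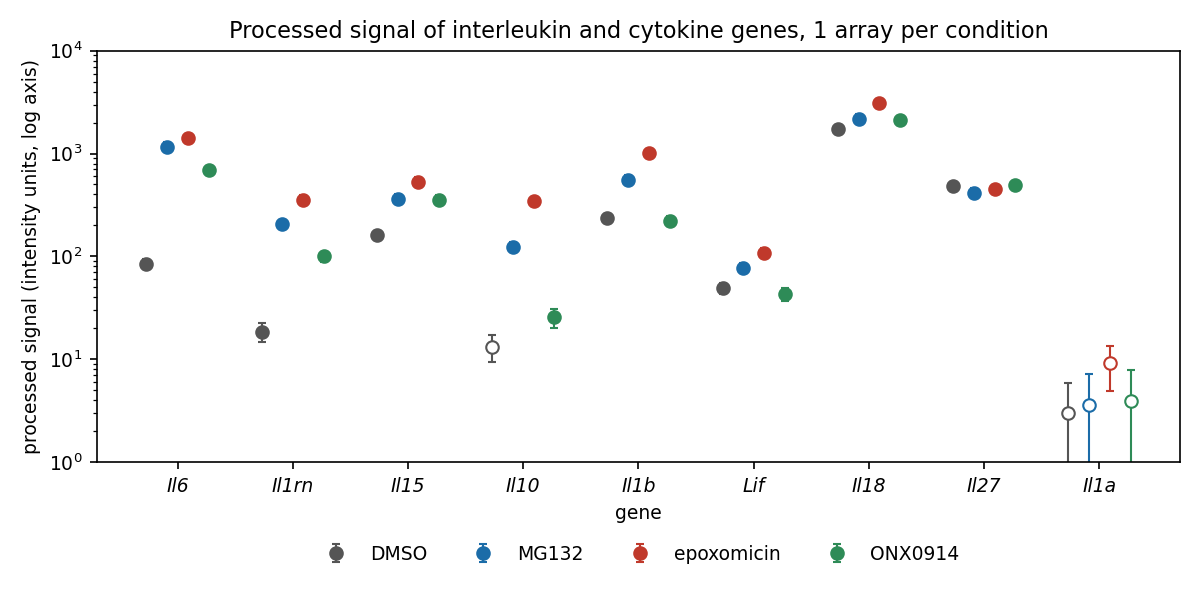
Processed signal (log axis) of the 9 genes with a probe on the array of each condition. Filled points were well above background, open points were not, and bars are the error given by the scanner software. *Il6* lies between 687 and 1418 with the inhibitors and at 84.4 with DMSO, and *Il27* lies between 417 and 493 on all arrays.

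The sequence before the transcription start was examined for the genes that had a window in the RefSeq promoter table (GRCm38.p6). Such a window was found for 7 of the 10 genes, and the 250 bases before the start are shown, 5′ to 3′ on the strand of the gene, for the 4 of them that were at least 2-fold higher with 1 or more inhibitors. Capitals mark matches to motifs of factors known for the control of cytokine genes: the kB motif of NF-kB, the AP-1 motif (TGANTCA), the cyclic AMP response element (TGACGTCA), the GAS motif of STAT dimers (TTCNNNGAA), the ISRE motif of interferon-regulated genes (GAAA, any 2 bases, GAAA) and the TATA box (TATAAA). Both strands were searched, except for the TATA box, which was searched on the strand of the gene, and no 2 marked matches overlap. The windows are *Il6* at chr5:30012864-30013113 (+ strand), *Lif* at chr11:4257318-4257567 (+ strand), *Il1b* at chr2:129371140-129371389 (- strand) and, of 3 windows for *Il1rn*, the first at chr2:24336610-24336859 (+ strand).
Il6: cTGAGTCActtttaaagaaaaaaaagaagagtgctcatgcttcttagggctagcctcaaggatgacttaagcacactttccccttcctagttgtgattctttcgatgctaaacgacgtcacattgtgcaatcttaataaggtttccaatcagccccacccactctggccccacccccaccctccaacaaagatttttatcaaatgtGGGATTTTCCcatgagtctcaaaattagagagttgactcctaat
Lif: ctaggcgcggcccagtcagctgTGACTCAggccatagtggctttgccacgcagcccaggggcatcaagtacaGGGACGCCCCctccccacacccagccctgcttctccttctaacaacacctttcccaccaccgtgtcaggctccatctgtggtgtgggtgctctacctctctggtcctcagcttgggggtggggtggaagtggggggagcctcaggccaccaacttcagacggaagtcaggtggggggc
Il1b: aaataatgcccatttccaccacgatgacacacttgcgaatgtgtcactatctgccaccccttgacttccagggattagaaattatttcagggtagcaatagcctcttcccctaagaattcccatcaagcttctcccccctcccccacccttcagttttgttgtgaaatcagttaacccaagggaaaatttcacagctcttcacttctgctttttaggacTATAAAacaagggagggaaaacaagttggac
Il1rn: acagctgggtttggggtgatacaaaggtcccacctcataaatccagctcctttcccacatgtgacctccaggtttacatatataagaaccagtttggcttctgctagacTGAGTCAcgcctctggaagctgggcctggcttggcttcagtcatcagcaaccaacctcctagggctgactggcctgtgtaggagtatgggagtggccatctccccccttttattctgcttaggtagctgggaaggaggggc

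The window of *Il6* held a kB match 44 to 35 bases before the start and an AP-1 match 249 to 243 bases before it. That of *Lif* held both motifs as well, the kB match 178 to 169 and the AP-1 match 228 to 222 bases before the start. Among the 32851 windows of the table, 7.25% held a kB match and 6.75% an AP-1 match. The *Il1b* window held a TATA box 31 to 26 bases before the start, as did 7.59% of all windows, and the first *Il1rn* window held an AP-1 match 141 to 135 bases before it. The *Il1a* window, not shown, held a TATA box (32 to 27 bases before the start) and an AP-1 match (12 to 6 bases). The other windows of *Il1rn* and those of *Il12b* and *Il18* held no match to any of the motifs. No GAS, ISRE or cyclic AMP response element match was found in any window of the 7 genes, compared with 7.02%, 2.98% and 1.55% of all windows. A match describes the letters of the sequence and was not tested as a binding site.

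Among ligands of the gp130 family, *Il6* had the largest differences and *Lif* small ones. The *Il6* probe had a processed signal of 84.4 ± 9.08 (software error) in the DMSO control, 1168 ± 117 under MG132, 1418 ± 142 under epoxomicin and 687 ± 68.8 under ONX0914. All 3 inhibitor arrays lay far above the DMSO array, and the ONX0914 array lay below the other two. After scaling, *Il6* was 15.7-fold higher under MG132 (log2 difference 3.98 ± 0.21), 16.6-fold higher under epoxomicin (4.05 ± 0.21) and 8.36-fold higher under ONX0914 (3.06 ± 0.21). From the highest difference downward, *Il6* held rank 30 of 13772 genes under MG132, 51 of 13864 under epoxomicin and 29 of 13791 under ONX0914. The 2-fold call of *Il6* held for all 3 inhibitors under the 11 alternative settings tried, in which its smallest log2 difference was 1.22, with ONX0914 under normexp background correction. Averaging over probes could not alter its values, as *Il6* had 1 probe. Nor could the settings that differ only for signals not well above background, as the *Il6* probe was above it on all arrays.

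The *Lif* probe had a signal of 49.1 ± 6.21 in the DMSO control, 77.2 ± 8.97 under MG132, 108 ± 11.9 under epoxomicin and 43.1 ± 6.60 under ONX0914. The epoxomicin and MG132 arrays were above DMSO, whereas the ONX0914 array was within the error of DMSO. The log2 difference of *Lif* was 0.84 ± 0.25 under MG132, 1.12 ± 0.24 under epoxomicin and -0.15 ± 0.29 under ONX0914, so that only epoxomicin passed 2-fold. The epoxomicin call was lost under both forms of normexp background correction, with a value of 0.65 when outlier spots were left out and of -0.65 when they were kept, and the MG132 difference was -0.94 in the latter and passed 2-fold with *Hprt* scaling (1.04). *Osm*, which encodes the gp130 ligand oncostatin M and is the coding gene next to *Lif* on chromosome 11, had a signal of 343 in the DMSO control, 1413 under MG132, 1567 under epoxomicin and 1457 under ONX0914. Its log2 differences were 2.23, 2.17 and 2.12, which are nearly equal for the 3 inhibitors, unlike those of *Lif*.

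Of the interleukin 1 family, *Il1b* was higher with MG132 and epoxomicin and not with ONX0914. The *Il1b* probe was printed 10 times, and all 10 spots were well above background on every array. Its mean signal was 237 in the DMSO control (spots from 203 to 254), 558 under MG132 (542 to 578), 1008 under epoxomicin (963 to 1075) and 222 under ONX0914 (209 to 240). The spots of MG132 and of epoxomicin overlapped with no other array, while those of DMSO and ONX0914 overlapped with each other. The log2 difference of *Il1b* from DMSO was 1.42 ± 0.10 (SD between spots) under MG132, 2.07 ± 0.10 under epoxomicin and -0.05 ± 0.11 under ONX0914, which corresponds to a 2.68-fold and a 4.20-fold higher level with the first and second inhibitor. Under normexp with outlier spots kept, the MG132 difference was 0.56 and the 2-fold call was lost.

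**Figure D2:**
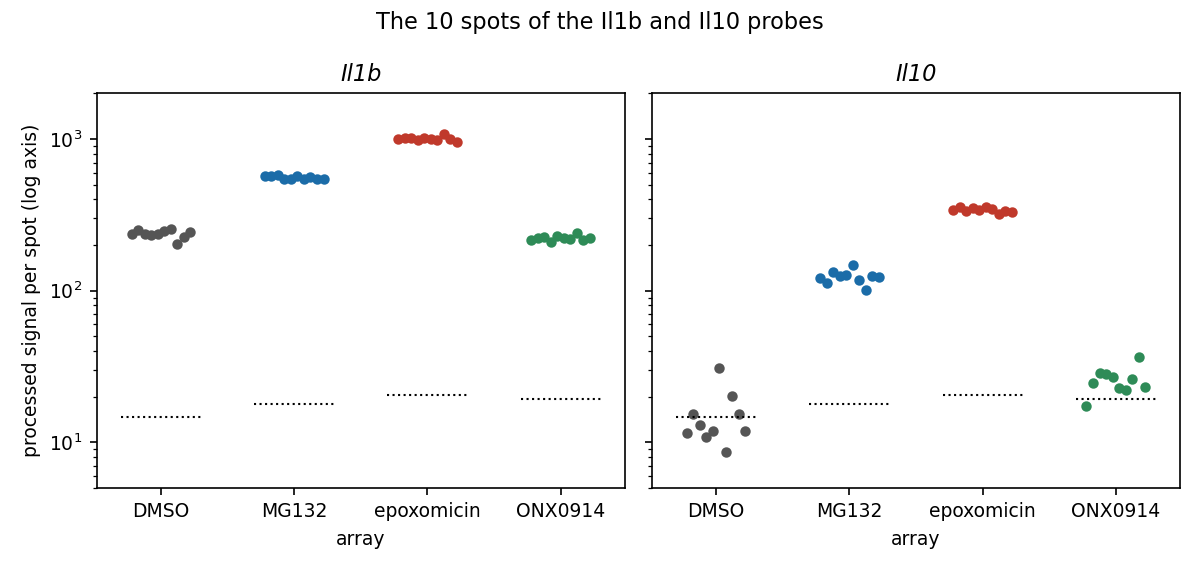
Processed signal (log axis) of each of the 10 spots of the *Il1b* and *Il10* probes by array, with the lowest signal of a probe well above background on that array as a dotted line. For *Il1b* the spots of DMSO (203 to 254) and ONX0914 (209 to 240) share a range, and for *Il10* most DMSO spots lie below the dotted line at 14.7. One of the *Il10* spots on the DMSO array was an outlier and did not enter its mean.

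*Il1rn*, which encodes the interleukin 1 receptor antagonist, was higher with all 3 inhibitors. Its probe had a signal of 18.5 ± 3.84 in the DMSO control, close to the lowest signal well above background on that array (14.7), and of 204 ± 20.8 under MG132, 355 ± 35.8 under epoxomicin and 99.7 ± 10.9 under ONX0914. The DMSO array was the lowest and the epoxomicin array the highest. *Il1rn* was thus 12.5-fold higher under MG132 (log2 difference 3.65 ± 0.33), 18.9-fold higher under epoxomicin (4.24 ± 0.33) and 5.53-fold higher under ONX0914 (2.47 ± 0.34). The value depended on the background correction, and with normexp the ONX0914 difference was 0.93 when outlier spots were left out and -0.69 when they were kept. Under the latter, the differences of *Il1rn* with MG132 and epoxomicin were 0.27 and 0.66, also below 2-fold.

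*Il18* had a signal of 1729 ± 173 in the DMSO control, 2181 ± 218 under MG132, 3071 ± 307 under epoxomicin and 2126 ± 213 under ONX0914. No array was 2-fold away from DMSO, with log2 differences of 0.52 ± 0.20, 0.81 ± 0.20 and 0.34 ± 0.20, respectively. *Il1a*, the coding gene next to *Il1b* on chromosome 2, had signals of 2.97, 3.60, 9.09 and 3.92 in the same order of arrays. None was called well above background, so that no difference is given for *Il1a*, and a low level of its transcript was not detectable on these arrays.

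*Il10* had the widest spread between the inhibitors among the 8 genes. Its probe was printed 10 times, with a mean signal of 13.2 in the DMSO control, 124 under MG132 (spots from 101 to 149), 342 under epoxomicin (321 to 359) and 25.7 under ONX0914 (17.3 to 36.3). With DMSO only 2 of its 10 spots were well above background, with ONX0914 6 of 10, and with MG132 and epoxomicin all 10. The level of *Il10* was at least 9.53-fold higher with MG132 and at least 22.9-fold higher with epoxomicin than with DMSO (log2 differences of at least 3.25 and 4.52), as bounds against the lowest signal well above background on the DMSO array. With ONX0914 the bound was 1.76-fold (0.82 on the log2 scale) and the gene was not called, although the measured signals gave 1.02. With normexp, the differences of *Il10* with MG132 and epoxomicin were 1.27 and 2.06 without outlier spots, below these bounds, and with outlier spots kept the epoxomicin difference was 0.49 and the others had no value.

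*Il15* was more than 2-fold higher with each of the 3 inhibitors. It had a signal of 162 ± 16.5 in the DMSO control, 364 ± 36.6 under MG132, 534 ± 53.6 under epoxomicin and 356 ± 35.8 under ONX0914. The MG132 and ONX0914 arrays were within error of each other, and both were above DMSO. The log2 difference was 1.35 ± 0.21, 1.70 ± 0.21 and 1.18 ± 0.21, or 2.56-fold, 3.26-fold and 2.26-fold. The ONX0914 call was lost with normexp, at 0.89 without outlier spots and 0.23 with them, and in the latter setting the MG132 and epoxomicin differences were 0.40 and 0.60.

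*Il27*, which encodes the p28 chain of interleukin 27, had a signal of 483 ± 48.4 in the DMSO control, 417 ± 42.0 under MG132, 448 ± 45.1 under epoxomicin and 493 ± 49.5 under ONX0914. All 4 arrays lay close together. The log2 differences were -0.03 ± 0.20, -0.13 ± 0.20 and 0.07 ± 0.20, each smaller than its software error.

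**Figure D3:**
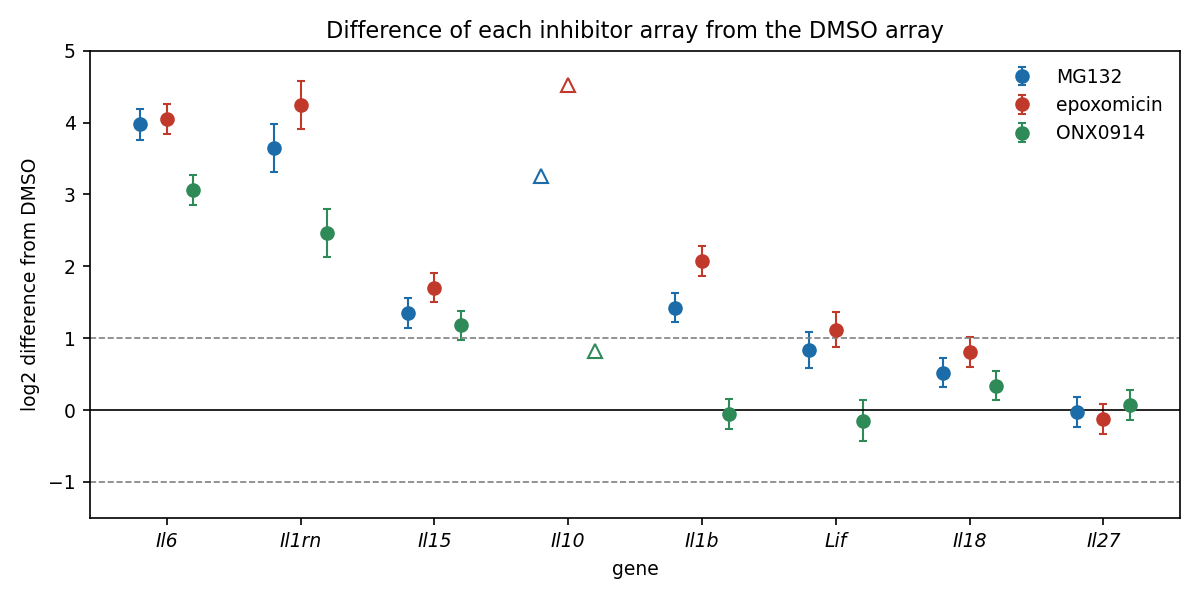
Log2 difference of each inhibitor array from the DMSO array for the 8 genes with a value. Filled points carry the software error, open triangles are lower bounds, and dashed lines mark 2-fold. *Il6* and *Il1rn* lie above the upper dashed line with every inhibitor, at 2.47 or more, and *Il27* lies within 0.13 of 0.

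The inhibitors were then compared with each other at the same dose and time, without the DMSO array, in 3 pairs of arrays. Epoxomicin and MG132 differed by less than 2-fold for 7 of the 8 genes, and the error after ± is that of the scanner software. *Il10* was 2.41-fold higher with epoxomicin than with MG132 (log2 difference 1.27 ± 0.21), the 1 gene of 8 that passed 2-fold, against 0.814% of 13629 genes. This call was lost under both forms of normexp, with a lowest value of 0.79. The differences of the other 7 genes between epoxomicin and MG132 ran from -0.10 for *Il27* to 0.65 for *Il1b*, and that of *Il6* was 0.07 ± 0.20, within its error.

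ONX0914 gave lower levels of several of the cytokines than the other inhibitors. Against MG132, 3 of 8 genes were at least 2-fold lower with ONX0914, compared with 3.03% of 13707 genes. These were *Il10* (log2 difference -2.43 ± 0.35), *Il1b* (-1.47 ± 0.21) and *Il1rn* (-1.18 ± 0.22). *Lif* (-0.99 ± 0.28) and *Il6* (-0.91 ± 0.20) fell just short of 2-fold, whereas *Il15*, *Il18* and *Il27* differed by -0.18, -0.18 and 0.09, less than their error of 0.20 to 0.21. Against epoxomicin, 4 of 8 genes were at least 2-fold lower with ONX0914, compared with 4.42% of 13792 genes. *Il10* differed by -3.70 ± 0.34, *Il1b* by -2.12 ± 0.21, *Il1rn* by -1.77 ± 0.21 and *Lif* by -1.27 ± 0.27. *Il6* was at -0.99 ± 0.20, *Il15* at -0.53 ± 0.20 and *Il18* at -0.47 ± 0.20.

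The calls of *Il10* and *Il1b* in both comparisons with ONX0914, and that of *Il1rn* against epoxomicin, held under the 11 alternatives, although with normexp the size for *Il10* was down to -1.01 against MG132 and -1.81 against epoxomicin. As for *Il6* above, the mean over probes and the settings that differ only for signals not well above background could not alter these values. *Il1rn* against MG132 was lost under both forms of normexp (lowest size -0.95), and *Lif* against epoxomicin was lost there as well (-0.45 without outlier spots). *Il6* and *Lif* lay near the threshold. Scaling by *Hprt* put *Il6* past 2-fold in both comparisons (-1.09 and -1.12) and *Lif* past it against MG132 (-1.16). The 75th percentile over detected probes did so for *Il6* against epoxomicin (-1.01) and *Lif* against MG132 (-1.01), and no scaling for *Il6* against epoxomicin (-1.05).

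**Figure D4:**
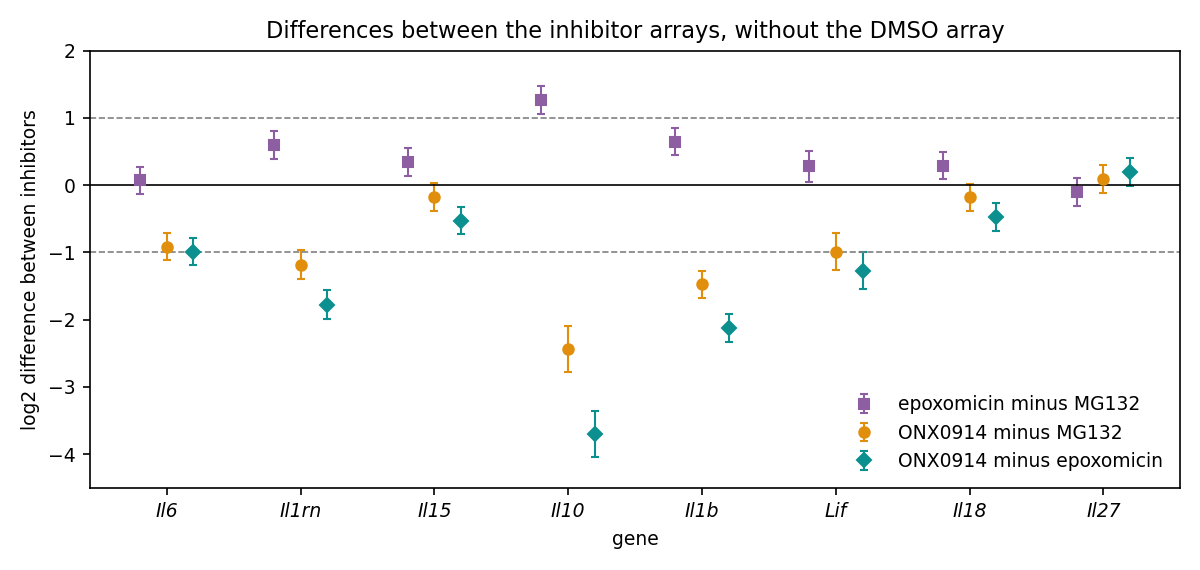
Log2 difference between pairs of inhibitor arrays for the 8 genes with a value, with the software error as bars and dashed lines at 2-fold. ONX0914 lies lowest for *Il10*, at -2.43 against MG132 and -3.70 against epoxomicin, while *Il15*, *Il18* and *Il27* lie between the dashed lines in all pairs.

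For the genes that were at least 2-fold higher with every inhibitor and measured on all arrays, the genes with the most similar set of 3 differences from DMSO were found by Euclidean distance on the log2 scale among 12730 genes. The nearest to *Il6* was *Cish*, which encodes a suppressor of cytokine signaling, at a distance of 0.20, with differences of 3.85, 4.15 and 2.95 with MG132, epoxomicin and ONX0914. It was followed by *Tgtp2* (distance 0.21) and *Tgtp1* (0.30), which encode interferon-inducible GTPases. *Il1rn* was nearest to *Oasl1* (0.30), *Isg15* (0.47) and *Mdm2* (0.47), and *Il15* to *Col27a1* (0.10), *Phf11b* (0.11) and *Zfand5* (0.19). These distances rest on 3 values per gene that all use the DMSO array.

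Among the receptors and soluble binders of the cytokines, more genes were called lower than higher with each inhibitor. Of 18 such genes with a probe, 15 were well above background on all arrays. At least 2-fold higher were 0 under MG132, 1 under epoxomicin and 0 under ONX0914, against 7.24%, 8.48% and 3.27% of all genes, and at least 2-fold lower were 2, 3 and 1 of the 15, against 3.68%, 4.40% and 1.40% of all genes, with median log2 differences of -0.37, -0.32 and -0.18. *Lifr*, the receptor chain for leukemia inhibitory factor, was lower with every inhibitor, with a signal of 1292 in the DMSO control, 360 under MG132, 494 under epoxomicin and 474 under ONX0914 (log2 differences of -1.66, -1.41 and -1.41). The other genes behind these counts were named after their values were seen. *Il10rb*, a receptor chain for interleukin 10, was lower with MG132 (-1.05) and epoxomicin (-1.20), *Il27ra* was lower with epoxomicin (-1.19), and *Il18bp*, whose product binds and neutralizes interleukin 18, was higher with epoxomicin (1.09).

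Among 15 partners and relatives of the cytokines with a probe, 3 of 8 genes with a value were at least 2-fold higher under MG132. Under epoxomicin 2 of 7 were higher and under ONX0914 2 of 7, and the shares of all genes were 7.24%, 8.48% and 3.27%. At least 2-fold lower were 0 with each inhibitor, against 3.68%, 4.40% and 1.40% of all genes. The median log2 difference was 0.81, 0.65 and -0.16. *Osm*, described above, was the one gene higher with all 3. The others, named after their values were seen, were *Cntf* (1.12 under MG132 and 1.52 under epoxomicin) and *Clcf1* (at least 1.67 under MG132 and at least 1.84 under ONX0914), both of which encode ligands that use gp130. *Clcf1* was dim, with signals of 41.2 under MG132 and 51.3 under ONX0914, and had no value under epoxomicin. Of other gp130 ligands on the list, *Il11* was not called (0.15, 0.54 and -0.16), and *Ctf1* was not well above background on any array.

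Of 10 genes for the processing and release of interleukin 1 family cytokines, all well above background on all arrays, 2 were at least 2-fold higher under MG132, 3 under epoxomicin and 1 under ONX0914, against 7.24%, 8.48% and 3.27% of all genes, and 1, 1 and 0 were lower, against 3.68%, 4.40% and 1.40%. *Casp4*, an inflammatory caspase, was higher with every inhibitor, with a signal of 9831 in the DMSO control, 59399 under MG132, 77680 under epoxomicin and 29228 under ONX0914 (log2 differences of 2.78, 2.96 and 1.61). The other genes were named after their values were seen. *Mefv*, which encodes the inflammasome sensor pyrin, was higher with MG132 (3.15) and epoxomicin (3.60) and at 0.89 with ONX0914. *Serpinb1a* was higher under epoxomicin (1.38), and *Pycard*, which encodes the inflammasome adaptor ASC, was lower under MG132 (-1.34) and epoxomicin (-1.47) and at -0.71 under ONX0914.

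Of 15 genes for signaling behind the receptors, 14 had a value. At least 2-fold higher were 4 under MG132, 4 under epoxomicin and 3 under ONX0914, against 7.24%, 8.48% and 3.27% of all genes. At least 2-fold lower were 0 with each inhibitor, against 3.68%, 4.40% and 1.40% of all genes. *Socs1* and *Socs3*, which encode inhibitors of JAK-STAT signaling, had larger differences with ONX0914 than with the other inhibitors, unlike *Il6*. Their log2 differences were 3.06 under MG132, 3.34 under epoxomicin and 4.43 under ONX0914 for *Socs1*, and 2.26, 2.77 and 3.10 for *Socs3*. *Traf6*, an adaptor for the interleukin 1 receptor that was named after its values were seen, was higher with MG132 (1.07) and epoxomicin (1.35).

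Of 18 regulators of cytokine transcription and mRNA stability, 7 of 17 with a value were at least 2-fold higher under MG132, 6 of 17 under epoxomicin and 4 of 18 under ONX0914, against 7.24%, 8.48% and 3.27% of all genes, and 1, 1 and 0 were lower, against 3.68%, 4.40% and 1.40%. *Arid5a*, whose product stabilizes *Il6* mRNA, had a signal of 3973 in the DMSO control, 84330 under MG132, 131912 under epoxomicin and 51646 under ONX0914 (log2 differences of 4.59, 5.03 and 3.74). *Zfp36*, whose product promotes the decay of cytokine mRNAs, was higher as well, by 2.13, 2.55 and 1.76. *Atf3*, a stress-induced transcription factor, was higher by 4.39, 4.57 and 2.91, and *Atf4*, a factor of the integrated stress response, by 1.12, 1.09 and 1.28. *Nfkbid*, named after its values were seen, was the 1 gene that was lower, with MG132 (-1.17) and epoxomicin (-1.40).

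**Figure D5:**
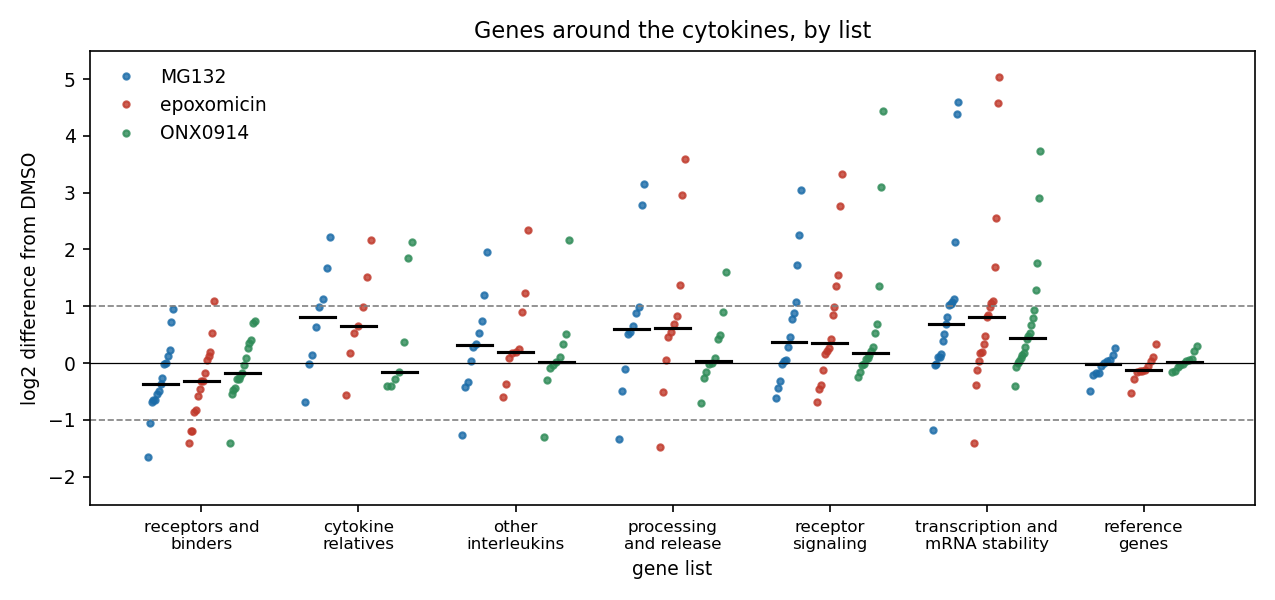
Log2 difference from DMSO of the genes of 6 lists around the cytokines and of 10 reference genes, by inhibitor, with bounds plotted at their value, the median of each list as a black bar and dashed lines at 2-fold. Receptors and binders have medians of -0.37, -0.32 and -0.18 with MG132, epoxomicin and ONX0914, and the reference genes all lie between the dashed lines.

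Markers of the cell type were checked on the same arrays. All 9 macrophage markers with a probe were well above background on every array, and their summed signal was 435989 in the DMSO control, 317276 under MG132, 358476 under epoxomicin and 403714 under ONX0914. The sums given here were not scaled between arrays. After scaling, the median log2 difference of the macrophage markers was -0.16 under MG132, -0.14 under epoxomicin and -0.03 under ONX0914. None of them was called higher on any inhibitor array, and *Lyz2* was 2-fold lower with epoxomicin (log2 difference -1.01). Of 17 markers of other cell types, 5 were well above background in the DMSO control, 5 under MG132, 7 under epoxomicin and 4 under ONX0914, with summed signals of 1267, 1220, 1142 and 1162. The T cell marker *Cd3e* stood above background on each array, at signals of 849, 792, 604 and 735, and without it the sums were 417, 428, 538 and 427. The B cell markers *Cd79a* and *Ms4a1* were not well above background on any array. The keratin gene *Krt8* was higher with MG132 (at least 1.55 on the log2 scale) and epoxomicin (at least 3.02) and *Krt18* with epoxomicin (at least 1.18), the inhibitors with which *Il10* and *Il1b* were higher, and their part in the result was not tested.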

How the data were processed

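J774 RNA was measured on 4 single-color arrays, 1 per condition. Per spot, the authors deposited an intensity written by Feature Extraction 10.7.1.1, already background-subtracted but not scaled between arrays, and 0 or 1 calls. They also deposited a table of log2 values from GeneSpring, which had 39483 entries, correlated at 0.9996 or more with differences between the arrays' own signals and served as an alternative.

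Control spots were left out (of 44397 spots, 43020 were not controls). The 75th percentile over all remaining spots of an array, outlier spots included, was subtracted from the log2 signal. The spots of a probe were averaged without outlier spots. Transcript accessions in the files named 26581 of 39429 probes (67.4%), giving 20144 genes, through the RefSeq table of GRCm38.p6. The highest mean probe stood for a gene, and a probe was detected when at least 50% of its spots were well above background. A signal not well above background was replaced by a bound, the higher of its own value and the lowest signal well above background on that array. A gene had no value in a comparison where the bound lay above the scaled signal of the other array, or where neither array was well above background. No coordinates of the file's build were used.

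The cytokines and the gene lists were chosen with earlier results of these data known. The text names the cytokines, up to 4 genes per list that were at least 2-fold from DMSO in 1 direction with every inhibitor, and the 3 nearest genes by Euclidean distance. Others are said to be named after their values were seen, and the values of some genes on the lists are not reported here. No hypothesis test was possible with 1 array per condition. The 11 alternatives to the processing were 2 forms of normexp (offset 50, on median spot brightness), 5 of scaling, the value table, the mean over probes, the signal in place of a bound and another detection call. A 4-fold threshold was also tried for counts. A difference was said to move at a change of 0.0870 or more, the largest median SD between spots (0.0615) times the square root of 2. The calculations were tested on simulated data. Python 3.11.15, numpy 2.4.6, pandas 2.3.3, matplotlib 3.10.9, R 4.3.3 and limma 3.58.1 were used.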

Additional observations from a re-analysis of the deposited data

How the results depend on the processing

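Normexp background correction moved the counts most. With outlier spots kept, 1, 2 and 1 of the cytokines were at least 2-fold higher with MG132, epoxomicin and ONX0914, against 3.41%, 4.16% and 1.40% of all genes, 1 was lower with ONX0914 (*Lif*), against 19.8%, and the medians were 0.40, 0.63 and -0.24. The median over all genes was then -0.28, -0.30 and -0.17, and 2 differences called at 2-fold changed direction, *Lif* with epoxomicin (-0.65) and *Il1rn* with ONX0914 (-0.69). Of those not called, *Lif* with MG132 (-0.94) and *Il27* with ONX0914 (-0.24) also did. The DMSO array had 1 spot with a local background over 100 (4361), the other arrays had none, and that spot was marked as an outlier. Leaving out that spot alone was not tested. With all outlier spots left out, 1 gene was higher with ONX0914, against 1.56% of all genes, and the medians were 1.12, 1.49 and 0.24. The median with MG132 was 1.29 after a shift to the median, 1.59 with *Hprt* scaling and 1.20 without scaling, and that with epoxomicin was 2.05 with *Hprt* scaling. Using the signal itself in place of a bound gave 0.68 with ONX0914, and the other detection call gave 1.70 with epoxomicin and 0.68 with ONX0914. Under that call 7 and 4 genes were higher, against 9.90% and 5.39% of all genes, among them *Il1a* with epoxomicin (at least 1.59). The median of all genes was 0.19 with MG132 and 0.13 with epoxomicin under *Hprt* scaling, and -0.20 with MG132 without scaling. At 4-fold, 3 genes were higher with MG132, and the share of all genes at 4-fold was not calculated. Over 48 differences of single cytokines, 374 of 526 values changed by less than the threshold for a move, 150 moved and 2 were called differences that reversed. The sign changed in 8 more values, all of differences not called. The mean over probes could not move any value, as each cytokine had 1 probe. The signal in place of a bound and the other detection call could move only differences given as bounds. The count of values that did not move therefore includes many that could not. No paired analysis was possible because each condition had 1 array. Signals near background limit *Il1a*, *Il10* and *Il1rn* most.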

Other observations

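Interleukins outside the list of 10 were mostly dim. Of 21 such genes with a probe, 10 had a signal well above background on 1 array or more and 7 on all. At least 2-fold higher were 2 of 10 under MG132, 2 of 9 under epoxomicin and 1 of 9 under ONX0914, against 7.24%, 8.48% and 3.27% of all genes, and 1, 0 and 1 were lower, against 3.68%, 4.40% and 1.40%. The genes behind these counts were named after their values were seen. *Il19*, the coding gene next to *Il10* on chromosome 1, had a signal of 16.8 in the DMSO control, 57.3 under MG132, 86.2 under epoxomicin and 18.1 under ONX0914, with log2 differences of 1.96 and 2.34 with the first and second inhibitor and no value under ONX0914. *Il16*, a chemoattractant for CD4+ cells, was higher by 1.19 with MG132 and 1.24 with epoxomicin. *Il5* had a signal of 64.1 with ONX0914 and was not well above background with DMSO (log2 difference of at least 2.16). *Il3* was lower by at least 1.27 under MG132 and at least 1.30 under ONX0914, where it was not well above background, while its signal was 48.8 in the DMSO control and 58.5 under epoxomicin.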
